A study of Homo sapiens with 4 samples.

Results

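The KRAB zinc-finger gene clusters of human chromosome 19 were taken as 2 blocks of genome build hg19, the build named in the submitters' processing notes. A region belonged to the pericentromeric block when it started from 20 Mb up to 24.5 Mb, and to the telomeric block when it started at 52 Mb or beyond. Of 262748 regions in the 3 deposited lists, 1333 fell in these blocks. The pericentromeric block held 258 regions, of which 101 came from the WT list and 157 from the KO list, and it held 0 RepID regions. The telomeric block held 1075 regions, of which 471 were WT, 498 KO and 106 RepID. The rest of chromosome 19, used as the reference, held 6931 regions (3485 WT, 2317 KO and 1129 RepID).

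The study asked whether RepID, also known as PHIP, marks and activates a subset of replication origins. Nascent strands, the short new DNA made where replication starts, were sequenced from asynchronous HCT116 colorectal carcinoma cells that were unaltered (WT) or lacked functional RepID by design (KO), and the binding of RepID was mapped by anti-FLAG ChIP-Seq in U2OS osteosarcoma cells carrying FLAG-tagged RepID. The knockout was made with CRISPR-Cas9 and a guide in the fourth exon of RepID, followed by puromycin selection of stable cells. The sources used here do not say whether the sequenced KO cells were 1 clone. Binding and initiation therefore come from different cell lines, and RepID binding in HCT116 cells was not analysed here. Each condition has 1 library, so no test between conditions was possible, and all intervals below are 95% intervals for counting error alone. They are too narrow, since adjacent regions depend on each other. Read totals are not part of the lists, and the depth is therefore unknown. Over the whole genome the WT list holds 78859 regions, the KO list 159667 and the RepID list 24222, a KO to WT ratio of 2.02.

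KRAB zinc-finger proteins are the largest family of human transcription factors. They bind DNA through tandem C2H2 zinc fingers, and their KRAB domain recruits TRIM28, which brings histone H3 lysine 9 methylation and silences transposable elements. The genes arose by repeated tandem duplication, and chromosome 19 carries many of them in long clusters, often under heterochromatin marks. The leukocyte receptor genes (LILR and KIR) and several NLRP genes, with roles in immunity and in oocytes, lie between zinc-finger genes near the end of the long arm.

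Gene order gives only a rough view of what the blocks hold, because no annotation on hg19 was used here. The genes that bound each stretch below were chosen from general knowledge, and their places relative to the block limits were not checked, so the label of the blocks was not tested. In RefSeq's GRCh38.p14 table, 33 of the 35 protein-coding genes from ZNF93 to ZNF254, the genes taken to bound the pericentromeric cluster, had a ZNF name (94.3%). From ZNF175 to MZF1, taken to bound the telomeric block, 101 of 237 did (42.6%). The share was 74.5% of 55 genes from ZNF175 to ZNF331, 6.17% of 81 genes from NLRP12 to ZNF784, and 60.9% of 87 genes from ZNF787 to MZF1. The 14 genes between these parts, of which 2 had a ZNF name, were left out of them. Among the other protein-coding genes of chromosome 19, 116 of 1179 had a ZNF name (9.84%), so the reference also holds zinc-finger genes. No single region was assigned to a gene. Few genes from NLRP12 to ZNF784 are zinc-finger genes, and the telomeric block is also described in 3 parts below.

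In most pairs, the ZNF promoters of the pericentromeric cluster, taken as the genes from ZNF93 to ZNF254, resembled one another. Below are RefSeq (GRCh38.p14) promoter windows, from 250 bases before to 50 after the start, for 3 genes spread along that cluster, 5′ to 3′ on the gene's own strand. ZNF91 and ZNF93 encode repressors of the SVA and L1 retrotransposons, respectively. ZNF93 and ZNF254 open and close the cluster in gene order. Capitals mark runs of at least 10 bases found in all 3 windows.
ZNF93: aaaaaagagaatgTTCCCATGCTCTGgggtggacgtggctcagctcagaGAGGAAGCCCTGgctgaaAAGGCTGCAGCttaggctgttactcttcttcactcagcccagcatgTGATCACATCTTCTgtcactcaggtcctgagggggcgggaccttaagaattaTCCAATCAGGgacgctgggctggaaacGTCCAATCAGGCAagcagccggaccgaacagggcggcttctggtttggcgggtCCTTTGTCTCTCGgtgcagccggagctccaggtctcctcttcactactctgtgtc
ZNF91: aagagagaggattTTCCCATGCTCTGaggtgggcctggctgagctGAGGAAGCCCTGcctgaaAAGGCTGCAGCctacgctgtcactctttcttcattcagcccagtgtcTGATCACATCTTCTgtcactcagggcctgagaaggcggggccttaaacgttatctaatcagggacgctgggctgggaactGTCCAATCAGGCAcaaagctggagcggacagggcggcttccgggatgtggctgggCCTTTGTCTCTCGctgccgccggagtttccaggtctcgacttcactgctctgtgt
ZNF254: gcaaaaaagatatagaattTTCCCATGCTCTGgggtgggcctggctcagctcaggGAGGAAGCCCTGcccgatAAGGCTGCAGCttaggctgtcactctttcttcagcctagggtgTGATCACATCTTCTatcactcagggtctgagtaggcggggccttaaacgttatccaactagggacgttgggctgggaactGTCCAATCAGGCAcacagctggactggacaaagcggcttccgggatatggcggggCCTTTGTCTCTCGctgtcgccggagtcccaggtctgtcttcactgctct
Identical aligned positions made up 84.7% of the window between ZNF93 and ZNF91, 82.7% between ZNF93 and ZNF254, and 87% between ZNF91 and ZNF254. Over all 351 pairs of the 27 ZNF promoters with a window in this cluster the median identity was 78.3%, and 92.6% of pairs exceeded 60%. Between neighbouring ZNF promoters of the telomeric block the median was 23.5% (88 pairs, 20.5% over 60%), and between other neighbouring genes of chromosome 19 it was 5.33% (959 pairs, 4.90% over 60%). How reads that fit several near-identical copies were treated is not given in the sources used here, and its part in the results below was not tested. The letters GGGAGG, a purine run that also occurs in the AG-rich replicator oligonucleotide the study used to search for RepID, stood on either strand in 19 of the 29 available windows from ZNF93 to ZNF254 (65.5%, exact interval 45.7 to 82.1), in 98 of 196 from ZNF175 to MZF1 (50%), in 62.3% of 960 windows of other chromosome 19 genes and in 54.6% of all 15843 windows. Among ZNF-named genes alone they stood in 19 of 27 windows from ZNF93 to ZNF254 (70.4%, 49.8 to 86.2). From ZNF175 to MZF1 it was 37.1% of 89 (27.1 to 48.0). Other ZNF-named genes of chromosome 19 gave 41.7% of 103 windows, and all ZNF-named genes 48.7% of 437. The intervals treat windows as independent, although those from ZNF93 to ZNF254 are alike in sequence. The study's altered oligonucleotides GQM and Mut e lack the letters GGGAGG on both strands and still formed both DNA-protein complexes in its gel shifts. The RepID motif of the study is a longer sequence that was not searched here, so the shares above do not count RepID sites.

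RepID was not called anywhere in the pericentromeric block, while it was called 106 times in the telomeric block. A count of 0 in 4.5 Mb has an exact upper limit of 0.820 regions per Mb, and the floor of 3 regions corresponds to 0.667 per Mb, against 14.9 per Mb (12.2 to 18.0) in the telomeric block and 23.8 per Mb (22.4 to 25.2) in the rest of the chromosome. The density in the rest was 35.7-fold that floor, and the exact interval of the ratio put it at least 29.0-fold higher than in the block. In the telomeric block it was 0.626 times that of the rest (0.508 to 0.764). RepID regions numbered 22.5 per 100 WT origins in the telomeric block, 32.4 in the rest of the chromosome and 30.7 over the whole lists.

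The stretch without RepID was longer than the block itself. It ran over 8.0 Mb, chr19:19729443-27731794, and contained 110 WT and 171 KO regions. The last RepID region before it, chr19:19729055-19729442, had a MACS score of 118.3 and lay 271 kb ahead of the block. The first one after it, chr19:27731795-27733647, had a score of 1104.71. The longest run of chromosome 19 without a region of any list, 3.21 Mb from chr19:24523001-27731794 over the centromere, lies within this stretch. The second longest run without RepID on the chromosome measured 842 kb, and the longest in the telomeric block, chr19:54984467-55627681, measured 643 kb while 58 WT and 37 KO regions overlapped it. In the pericentromeric block no WT origin came closer than 282 kb to a RepID region, and the median distance was 2.77 Mb, against 26.8 kb in the telomeric block and 13.7 kb in the rest.

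WT initiation regions were sparse in the pericentromeric block, and in the telomeric block their density was nearer to that of the rest. The WT density was 22.4 per Mb (18.3 to 27.3) in the pericentromeric block, 66.2 (60.3 to 72.4) in the telomeric block and 73.5 (71.0 to 75.9) in the rest. The pericentromeric density was 3.27-fold lower than that of the rest (2.69 to 4.03), and the telomeric density was 0.901 times it (0.816 to 0.992). The interval of the telomeric ratio included 1 when regions less than 1 kb apart were merged, and when the long arm between the blocks alone was the reference (0.972, 0.876 to 1.08). That long arm includes the 3.21 Mb over the centromere without a region of any list, which lowers its density. With that stretch left out of the whole rest, the telomeric ratio was 0.840 (0.761 to 0.925). WT regions covered 4.63% of the pericentromeric block, 23.6% of the telomeric block and 36.2% of the rest.

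KO initiation regions followed another order. Their density was 34.9 per Mb (29.6 to 40.8) in the pericentromeric block, 70.0 (64.0 to 76.4) in the telomeric block and 48.8 (46.9 to 50.9) in the rest. The telomeric block was thus 1.43-fold denser than the rest (1.30 to 1.58), and the pericentromeric block 1.40-fold less dense (1.19 to 1.66). Among KO regions scoring at or above the list median, the pericentromeric ratio to the rest was 0.892 with an interval that included 1 (0.708 to 1.11). KO regions covered 12.8% of the pericentromeric block, 21.4% of the telomeric block and 15.02% of the rest.

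**Figure D1:**
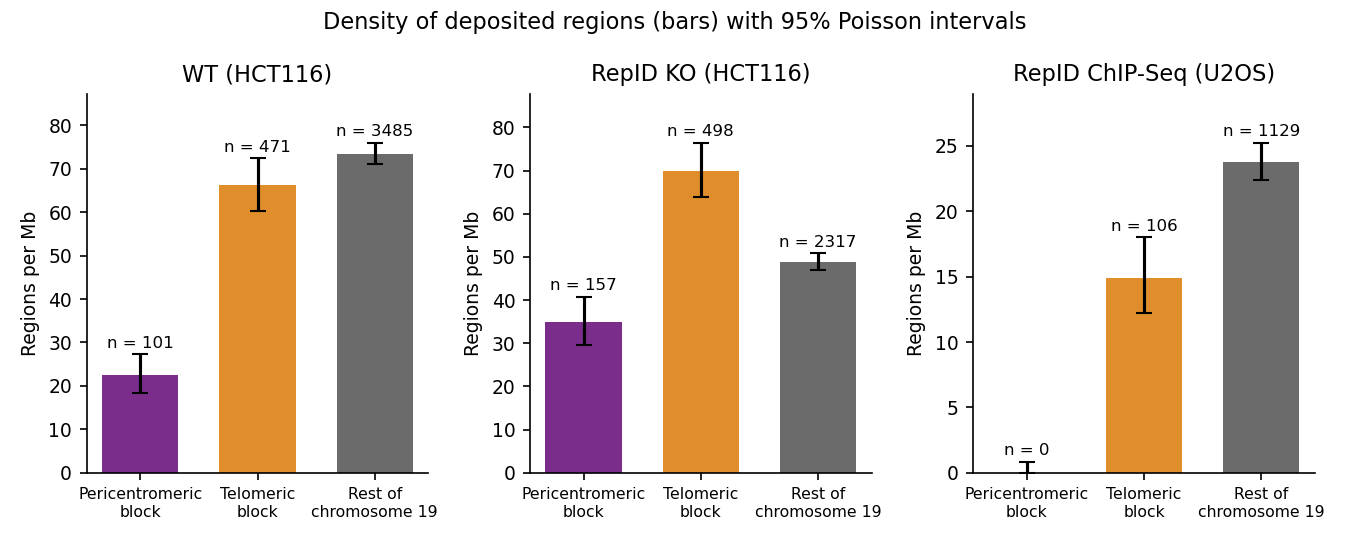
Regions per Mb in the pericentromeric block, the telomeric block and the rest of chromosome 19, for the WT, KO and RepID lists (bars), with exact 95% Poisson intervals and the number of regions above each bar. WT regions are densest in the rest (73.5 per Mb), KO regions in the telomeric block (70.0 per Mb), and the pericentromeric block has no RepID region.

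Both blocks held more KO regions per WT region than the rest of the same chromosome. There were 1.55 KO regions per WT region in the pericentromeric block, 1.06 in the telomeric block and 0.665 in the rest. The ratio was 2.34 times that of the rest in the pericentromeric block (1.81 to 3.02) and 1.59 times in the telomeric block (1.39 to 1.82). In covered base pairs the KO to WT ratio was 2.78, 0.908 and 0.414, in the same order, against 1.83 over the whole lists. By this measure the pericentromeric block lay above the whole lists, and the telomeric block and the rest lay below. By number, both blocks stayed below the 2.02 KO regions per WT region of the whole lists, and the rest of chromosome 19 stood furthest from it. The reference itself varied, with 0.516 on the short arm before the pericentromeric block and 0.793 on the long arm between the blocks. On the scale of the long arm alone, on which the telomeric block lies, its ratio was 1.33 times that of the reference (1.16 to 1.54).

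KO regions were at least as many as WT regions in every 500 kb bin of the pericentromeric block. From its start to its end the 9 bins held 17, 2, 7, 13, 11, 24, 10, 7 and 10 WT regions. The same bins held 20, 2, 13, 21, 23, 24, 15, 19 and 20 KO regions. KO regions outnumbered WT regions in 7 of 9 bins, equalled them in 2, and covered more base pairs in 9 of 9. In the rest of the chromosome they covered more in 20 of the 90 bins with a WT or KO region (22.2%). No genome share was taken for covered base pairs. Over the genome, 83.4% of 5695 bins held more KO than WT regions, so the 77.8% of this block is no higher than the background. The bin with the fewest regions started at 20.5 Mb and had 2 of each list. All 9 bins lacked RepID, as did 29.3% of bins over the genome. The kept share of WT origins ran from 0 of 2 in that bin to 4 of 7 in the bin from 23.5 Mb (57.1%), and the bin with the most WT regions, from 22.5 Mb, kept 13 of 24 (54.2%).

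Spacing gave the same picture. The median gap between neighbouring WT regions was 22.4 kb in the pericentromeric block, 5.2 kb in the telomeric block and 3 kb in the rest, and between KO regions it was 11.7, 6.6 and 9.8 kb. The pericentromeric block was thus the only one of the 3 stretches whose WT gaps were longer at the median than its KO gaps. RepID regions were 31.1 kb apart at the median in the telomeric block and 15.6 kb in the rest.

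The telomeric block was uneven. Its 15 bins, the last of which is cut short by the chromosome end, held 7 to 50 WT regions (median 31), 12 to 47 KO regions (median 32) and 0 to 26 RepID regions (median 7). From start to end they held 25, 22, 29, 31, 33, 45, 45, 50, 28, 31, 28, 23, 31, 43 and 7 WT regions. The KO counts were 47, 37, 36, 44, 21, 31, 30, 27, 32, 36, 31, 29, 47, 38 and 12. KO regions outnumbered WT regions in 10 of 15 bins (66.7%, against 83.4% over the genome) and covered more base pairs in 7 of 15 (46.7%). RepID regions numbered 9, 8, 7, 2, 12, 8, 0, 26, 5, 5, 3, 5, 7, 9 and 0. The 5 bins with more WT regions were the 4 from 54 Mb up to 56 Mb and the bin from 58.5 Mb. The highest WT count and the highest RepID count of the block, 50 and 26, fell in the same bin, which starts at 55.5 Mb, and the bin just before it had 45 WT regions and no RepID region. The kept share was lowest in the bin from 54 Mb (9 of 33, 27.3%) and, leaving aside the short last bin with 6 of 7, highest in the bin from 58 Mb (23 of 31, 74.2%). In the rest of the chromosome KO regions outnumbered WT regions in 19 of 90 bins (21.1%) and covered more base pairs in 20 (22.2%), and 2 bins lacked RepID. These counts, like those over the genome, leave out bins with neither a WT nor a KO region, of which the rest of chromosome 19 has 5.

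**Figure D2:**
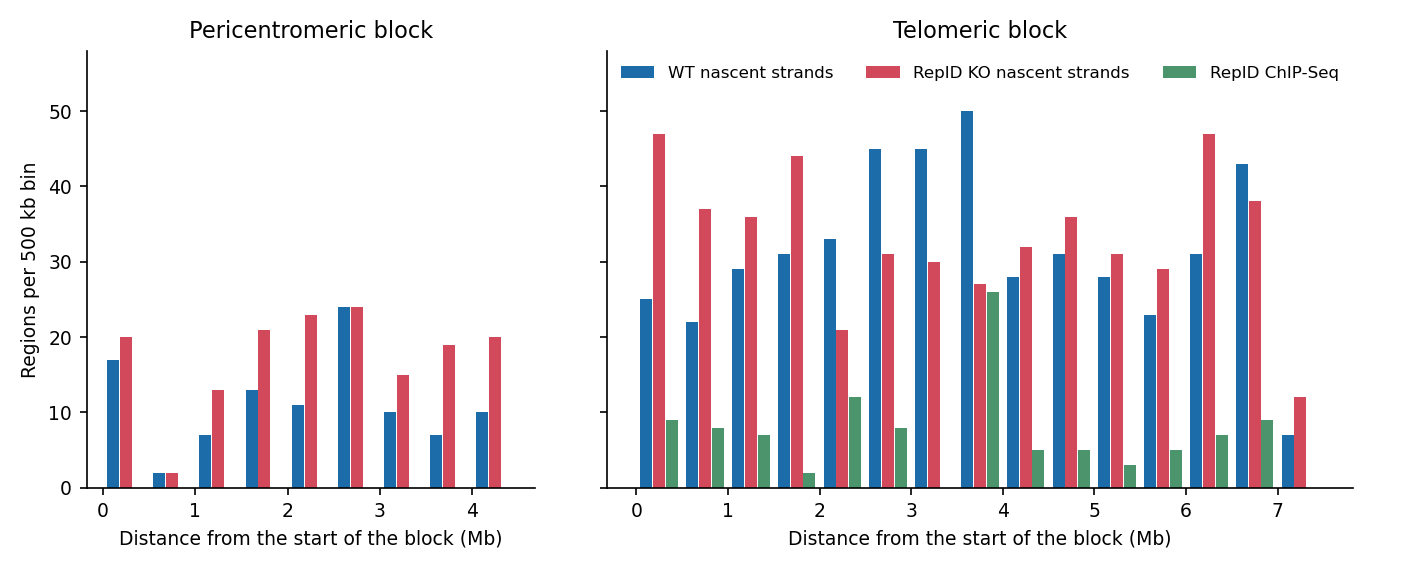
Number of WT, KO and RepID regions per 500 kb bin (vertical axis) against the distance from the start of each block in Mb, for the pericentromeric block (left) and the telomeric block (right). KO bars equal or exceed WT bars in all 9 pericentromeric bins, WT bars are higher in the middle of the telomeric block, and RepID bars are missing from the left panel.

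Widths and scores separated the WT and KO lists in the pericentromeric block. WT regions there had a median width of 1400 bp (quartiles 1000 and 2600 bp), against 2400 bp in the telomeric block (1400 and 3800 bp) and 3000 bp in the rest (1800 and 5800 bp). KO regions had medians of 3200 bp (2400 and 4200 bp), 2800 bp (1800 and 3800 bp) and 2600 bp (1800 and 3800 bp). Only 27.7% of pericentromeric WT regions were wider than the median of the whole WT list, a difference of -29.9 percentage points from the rest (-37.9 to -20.4). Of pericentromeric KO regions, 55.4% exceeded the median of their own list, a difference of 16.1 points from the rest (7.99 to 23.9). In the telomeric block the WT share was 47.3%, a difference of -10.3 points (-15.1 to -5.50) from the rest and of -6.47 points (-11.5 to -1.42) from the long arm alone, while the KO share differed by -0.807 points with an interval that included 0 (-5.44 to 3.97).

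**Figure D3:**
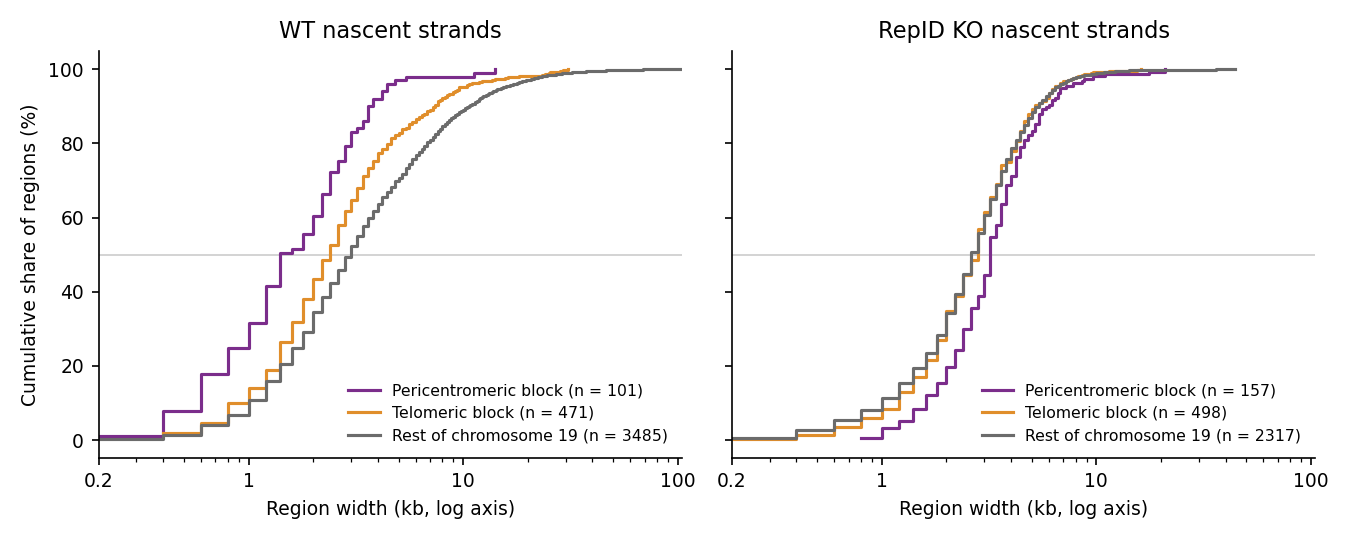
Cumulative share of regions (vertical axis, %) against region width in kb on a log axis, for WT regions (left) and KO regions (right), with one line per block and one for the rest of chromosome 19. The pericentromeric line lies left of the others in WT cells (median 1400 bp) and right of them in KO cells (median 3200 bp).

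Scores, compared only within a list, followed the widths. The median WT score was 76 in the pericentromeric block, 126 in the telomeric block and 179 in the rest, and the median of the whole WT list was 122. The median KO score was 135, 126 and 121, against 130 for the whole KO list. Of pericentromeric KO regions, 53.5% scored above that list median, a difference of 10.3 points from the rest (2.25 to 18.2). From the long arm alone it was 7.38 points with an interval that included 0 (-0.821 to 15.4). RepID regions of the telomeric block had medians of 156 for the MACS score and 466 bp for the width, against 169 and 499 bp in the rest. Of them, 28.3% were wider than the median of the RepID list, a difference of -9.87 points from the rest (-18.1 to -0.244). This rested on the long arm (-15.6 points, -24.3 to -5.63). The difference from the short arm was -2.95 points with an interval that included 0 (-11.7 to 7.05), and the short arm's medians, 152 for the score and 447 bp for the width, lay below those of the telomeric block. Their share that scored above the median of that list was 32.1%, a difference of -8.14 points from the rest with an interval that included 0 (-16.8 to 1.66), and of -12.01 points from the long arm alone (-21.0 to -1.86).

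WT origins were kept in KO cells, that is overlapped by a KO region by at least 1 bp, at nearly the same share in the pericentromeric block and the rest, and at a higher share in the telomeric block. Of 101 pericentromeric WT origins 42 were kept (41.6%, exact interval 31.9 to 51.8), of 471 telomeric ones 254 (53.9%, 49.3 to 58.5), and of 3485 in the rest 1444 (41.4%, 39.8 to 43.1). The telomeric block exceeded the rest by 12.5 percentage points (7.69 to 17.2). The rest was itself uneven, with 35.0% kept on the short arm and 46.9% on the long arm between the blocks, and the telomeric block exceeded the long arm by 6.998 points (1.95 to 12.0). The pericentromeric difference was 0.149 points, and its interval, -9.13 to 10.0, leaves room for a difference of that size either way. The result depended on the overlap required. With at least 50% of the origin covered, the pericentromeric share exceeded that of the rest by 9.502 points (1.12 to 19.2), by 16.3 points (7.84 to 26.0) against the short arm and by 3.65 points with an interval that included 0 (-4.86 to 13.5) against the long arm. Over the whole WT list 60.6% of origins were kept by at least 1 bp, so both blocks and the rest lay below the background. No whole-list share was taken at 50% coverage.

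The kept share varied with the width of the WT regions in the pericentromeric block, in the telomeric block and in the rest alike. Of the 32 pericentromeric WT regions up to 1 kb wide 7 were kept (21.9%), of 29 between 1 and 2 kb 11 (37.9%), of 37 between 2 and 5 kb 21 (56.8%), and of the 3 wider ones all 3. In the rest of the chromosome the same classes gave 26.0, 33.3, 39.1 and 56.7%. In the telomeric block they gave 28.8, 56.8, 55.1 and 66.7%. No share by width class was taken over the whole WT list, of which 60.6% was kept over all widths. When width was matched by quintiles of the WT regions of the rest, the pericentromeric difference from the rest became 19.6 points, a value that rests on 2 kept of 2 origins in the widest quintile and 6 of 8 in the next, and 14.5 points without the widest. When only WT regions up to 5 kb were compared, a limit chosen after seeing the data, it was 4.65 points with an interval that included 0 (-4.67 to 14.7).

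Where a pericentromeric origin was kept, the KO region tended to be the larger. The 42 kept origins met 40 KO regions, and the KO region was wider than the WT region in 30 of the 42 pairs (71.4%), with medians of 4000 and 2400 bp. The centres lay a median of 1000 bp apart. In the telomeric block the KO region was wider in 145 of 254 pairs (57.1%), and in the rest in 38.6%. No share of pairs was taken over the genome. KO regions were also the wider over the whole lists, with medians of 3000 bp against 2400 bp for WT regions. In all, 19.8% of all pericentromeric WT regions and 19.5% of telomeric ones were wholly covered by KO regions, against 8.95% in the rest, differences of 10.8 points (4.17 to 19.7) and 10.6 points (7.11 to 14.5). No share over the whole WT list was taken for whole coverage or for the centres below. In kept share the rest, at 41.4%, lay below the 60.6% of that list. The centre of the WT region was covered in 30.7% of pericentromeric, 38.2% of telomeric and 24.8% of other origins, the last made up of 18.2% on the short arm and 30.5% on the long arm. Set against the KO coverage of each stretch, these are 2.39, 1.78 and 1.65 times the share of all positions covered. Set against the KO coverage 19 to 20 kb from the same centres, they are 1.81, 1.75 and 1.54 times it. On that scale the 2 blocks were close to each other.

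**Figure D4:**
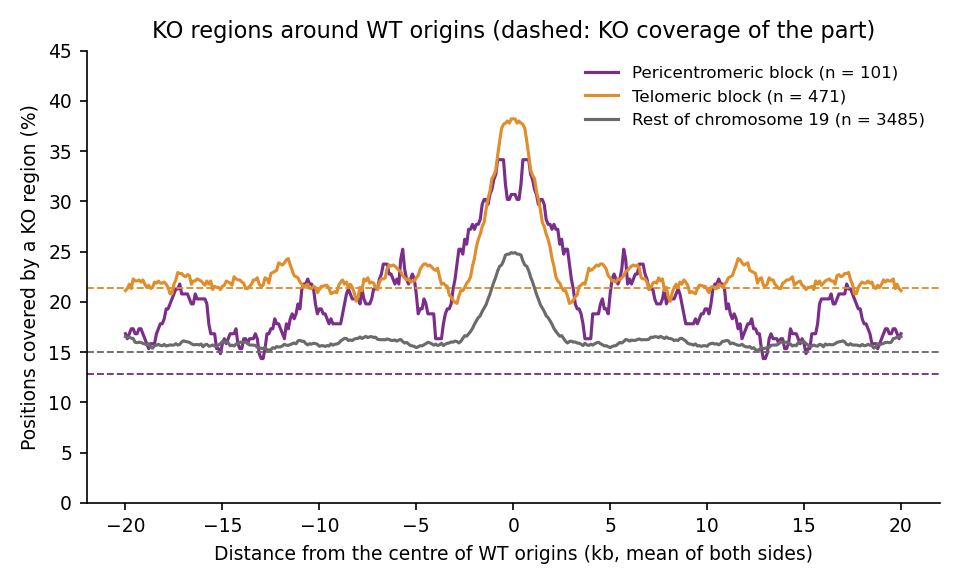
Share of positions covered by a KO region (vertical axis, %) at each distance from the centre of WT origins (kb, both sides averaged), for the 3 stretches, with dashed lines for the KO coverage of the whole stretch. At the centre the values are 30.7% (pericentromeric), 38.2% (telomeric) and 24.8% (rest), above the dashed lines at 12.8, 21.4 and 15.02%.

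RepID-bound origins, those with a RepID region within 2 kb, made up 0 of 101 WT origins in the pericentromeric block (exact upper limit 3.59%, and 2.97% at the floor of 3 origins), 80 of 471 in the telomeric block (17.0%, 13.7 to 20.7) and 733 of 3485 in the rest (21.0%). The background over the whole WT list was 18.7%. The telomeric share differed from that of the rest by -4.05 points (-7.46 to -0.161), and the interval included 0 when only the short arm served as reference. Bound telomeric origins were wider and scored higher than unbound ones, with medians of 3200 bp and 281.5 against 2200 bp and 113.

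Bound and unbound origins of the telomeric block were kept at shares that could not be told apart at these numbers. Of the 80 bound origins 45 were kept (56.3%, 44.7 to 67.3), and of the 391 unbound ones 209 (53.5%, 48.4 to 58.5), a difference of 2.80 points (-9.16 to 14.3). In the rest the shares were 42.7 and 41.1%, a difference of 1.60 points (-2.38 to 5.65). Bound origins were the wider, with medians of 3200 against 2200 bp in the telomeric block and 5400 against 2600 bp in the rest. The widest WT regions were kept most often in both, bound and unbound origins were not matched for width, and the part of width in these shares was not tested. The telomeric block therefore exceeded the rest among bound origins by 13.5 points (2.06 to 24.5) and among unbound ones by 12.4 points (7.07 to 17.6). Both telomeric shares lay below the 60.6% of all origins kept over the whole WT list, although the interval of the bound share included that value. No whole-list share was taken for bound and unbound origins separately. Against the long arm alone the differences were 9.27 points with an interval that included 0 (-2.70 to 20.7) and 6.54 points (0.965 to 12.04). At the origin centre the rest showed lower KO coverage for bound than unbound origins, a difference of -6.59 points (-9.78 to -3.16). The telomeric difference was -2.37 points (-13.2 to 9.53), an interval that covers both 0 and the value of the rest.

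**Figure D5:**
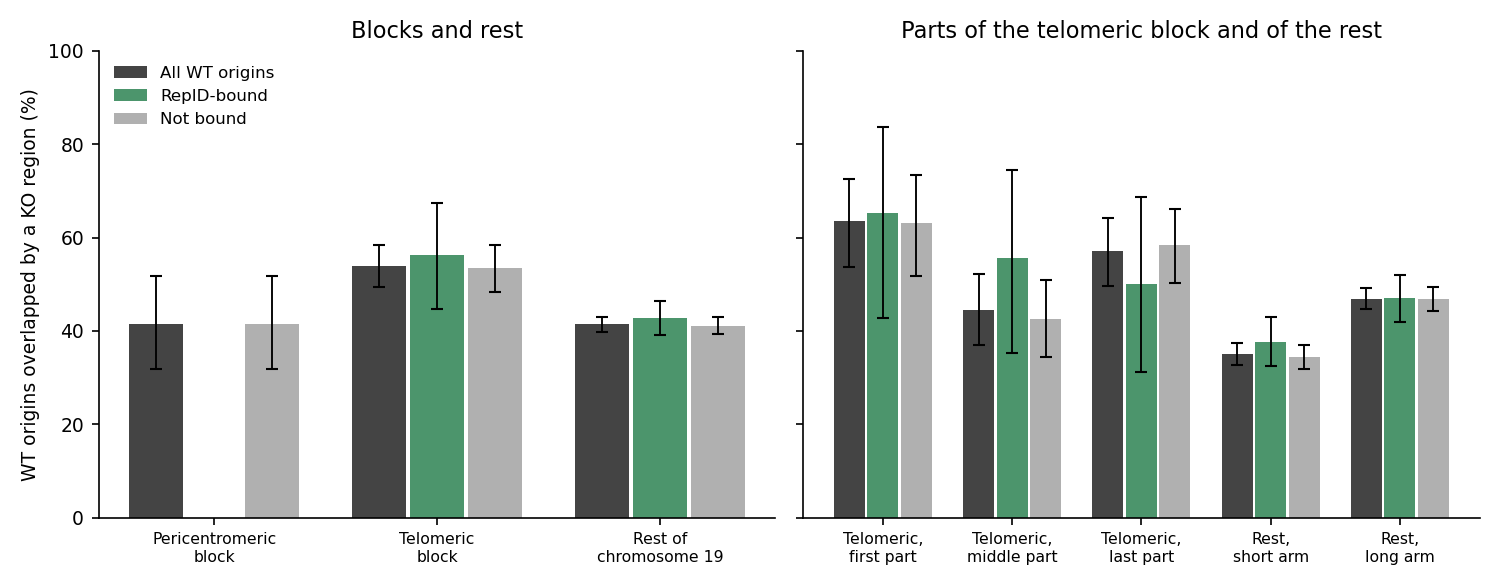
Share of WT origins overlapped by a KO region (vertical axis, %), with exact 95% binomial intervals, for all, RepID-bound and unbound origins in the blocks and the rest (left), and in the parts of the telomeric block from 52, 54 and 56 Mb and the 2 arms of the rest (right). The telomeric block stands at 53.9%, the pericentromeric block at 41.6% with no bound origin, and the first part of the telomeric block at 63.6%.

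Seen from the RepID regions, those of the telomeric block sat near KO initiation more often than those of the short arm, while the interval of the difference from the long arm included 0. Of the 106 regions 98 lay within 2 kb of a WT region (92.5%), against 96.0% in the rest and a background of 91.1% over the whole RepID list. Within 2 kb of a KO region lay 55 of 106 (51.9%, 42.0 to 61.7), against 33.7% in the rest, a difference of 18.1 points (8.32 to 27.8). The rest combined 24.0% on the short arm with 41.8% on the long arm, and the differences from them were 27.9 points (17.7 to 37.8) and 10.07 points (-0.127 to 20.1). The background for KO proximity was 51.8%, so the telomeric share was close to that of the genome and the rest of chromosome 19 lay below it. By combination, 52 regions lay near both lists, 46 near WT regions but not KO regions, 3 near KO regions but not WT regions and 5 near neither.

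KO regions more than 2 kb from any WT region made up 102 of 157 in the pericentromeric block (65.0%, 57.0 to 72.4), 196 of 498 in the telomeric block (39.4%, 35.0 to 43.8) and 25.5% in the rest. The differences from the rest were 39.5 points (31.6 to 46.7) and 13.9 points (9.32 to 18.6). Against the 28.4% of the long arm alone the differences were 36.6 points (28.5 to 44.0) and 11.01 points (6.20 to 15.9). The background over the whole KO list was 63.3%, close to the pericentromeric value. Such KO regions of the pericentromeric block were 3000 bp wide at the median, with a median score of 129.5. The 55 KO regions near a WT region had medians of 3600 bp and 158. WT density was also lowest in that block, at 22.4 per Mb, and its part in this share was not tested.

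The middle part of the telomeric block had the highest WT and RepID densities and the lowest KO density, while the parts on either side had overlapping intervals in all 3 lists. From 52 to 54 Mb there were 107 WT regions (53.5 per Mb, 43.8 to 64.6), 164 KO regions (82 per Mb, 69.9 to 95.6) and 26 RepID regions (13 per Mb, 8.49 to 19.05), a KO to WT ratio of 1.53. From 54 to 56 Mb there were 173 WT (86.5 per Mb, 74.1 to 100.4), 109 KO (54.5 per Mb, 44.8 to 65.7) and 46 RepID regions (23 per Mb, 16.8 to 30.7), a ratio of 0.630. From 56 Mb on there were 191 WT (61.3 per Mb, 52.9 to 70.6), 225 KO (72.2 per Mb, 63.0 to 82.2) and 34 RepID regions (10.9 per Mb, 7.55 to 15.2), a ratio of 1.18. The middle part thus came close to the 0.665 of the rest, and the flanking parts lay above it but below the 2.02 of the whole lists. In covered base pairs the KO to WT ratios were 1.89, 0.439 and 1.06 in order. The first of these was close to the 1.83 of the whole lists. The intervals of the middle part overlapped those of the first for RepID and those of the last for KO regions.

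Over all WT origins the kept share was lowest in the middle part, with an interval that overlapped that of the last part. The shares were 63.6% of 107 origins in the first part (53.7 to 72.6), 44.5% of 173 in the middle (37.0 to 52.2) and 57.1% of 191 in the last (49.7 to 64.2). Against the background of 60.6% over the whole WT list, the intervals of the first and last parts include it and that of the middle part lies below. KO regions over 2 kb from a WT region made up 50.6, 14.7 and 43.1%, against 63.3% over the whole KO list. All 46 RepID regions of the middle part lay within 2 kb of a WT region. Within 2 kb of a KO region lay 19 of the 26 in the first part (73.1%, 52.2 to 88.4). In the middle part 20 of the 46 did (43.5%, 28.9 to 58.9), and in the last 16 of 34 (47.1%, 29.8 to 64.9). The share over the whole RepID list was 51.8%, and the intervals of the parts overlapped. KO coverage was also lowest in the middle part, at 22.9, 16.2 and 23.8% of positions in order, and its part in the kept shares was not tested.

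Individual regions show these patterns. The highest-scoring WT region of the pericentromeric block, chr19:24182601-24188000, had a score of 2461, above 97.2% of the WT list, and KO regions covered 70.4% of it. The next, chr19:22780801-22794800, was the widest of the block at 14000 bp, with a score of 1220 and 28.6% of its length covered in KO cells. All 5 of the highest-scoring WT regions there were kept to some degree, from 4.55% to 70.6% of their length. The highest-scoring one without a KO region, chr19:22988001-22990800, had a score of 359 and a KO region 1.6 kb away, while chr19:22287401-22291600, with a score of 350, had none within 26.2 kb.

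The highest-scoring KO regions of the pericentromeric block ranked high in their list, although the block's median score, 135, was close to the 130 of the whole list. The region at chr19:22506001-22526800 spanned 20800 bp with a score of 931, above 99.6% of all KO regions, and 41.3% of it was covered by a WT region. The next, chr19:21078401-21096000, spanned 17600 bp with a score of 783 and lay 10.0 kb from the nearest WT region. The remaining 3 of the top 5 lay 12.6 to 40.2 kb from any WT region. The region at chr19:21078401-21096000 fell inside the longest WT gap of the block, chr19:20714001-21106000, which spanned 392 kb and contained 7 KO regions. The longest KO gap, chr19:20654001-21047200, overlaps most of that WT gap, and 1 WT region lay in it, so both lists were empty over the shared stretch.

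In the telomeric block the 5 highest-scoring WT regions all lay between positions 55589601 and 56210800 and were 15600 to 29200 bp wide. The highest, chr19:55850401-55875800, spanned 25400 bp with a score of 7671, above 99.5% of WT regions. It contained 2 RepID regions and no KO region overlapped it, although one lay 1.0 kb away. Its neighbour, chr19:55876601-55905800, had a score of 4977 and 7 RepID regions, and 4 KO regions covered 29.5% of it. The region at chr19:55984001-56008000, with a score of 5798 and 3 RepID regions, had 2.5% of its length covered. The region at chr19:56195201-56210800, with a score of 5233, had neither a KO region over it nor a RepID region within 40.7 kb. High-scoring WT regions were thus found with and without RepID and with and without KO overlap in the same 500 kb.

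The 5 highest-scoring RepID regions of the telomeric block all lay wholly within a WT region, and none was overlapped by a KO region. They were chr19:54641438-54642591, chr19:54694905-54695896, chr19:55795975-55797259, chr19:55627682-55628646 and chr19:54371762-54372734. Their MACS scores ran from 381.81 to 489.65, above 77.6 to 84.8% of the RepID list. The nearest KO region lay 0.609, 10.5, 0.574, 31.4 and 5.07 kb away, in the same order, so 2 of the 5 count as near a KO region by the 2 kb rule. The first lies in the WT region chr19:54639001-54661200, with a score of 3593, of which KO regions covered 58.6% without reaching the RepID region. The fifth lies in chr19:54367201-54374200, which contained 4 RepID regions and was not kept.

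The median KO score of the telomeric block, 126, was close to the 121 of the rest, while its highest was below the maxima of the short arm (3322) and the long arm (30227). The highest-scoring KO region of the block, chr19:57322801-57339000, had a score of 792, still above 99.3% of KO regions, and WT regions covered 39.5% of it. Of the 5 highest, 4 overlapped a WT region and the other, chr19:53248601-53260000, lay 0.4 kb from one. The highest-scoring KO region away from WT regions, chr19:52305801-52315000, had a score of 408 and lay 3.2 kb from a WT region and 2.11 kb from RepID. The longest WT gap of the telomeric block, chr19:56224601-56412800, spanned 188 kb and contained 12 KO regions.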

How the data were processed

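The authors deposited 3 region lists, which give the limits and the score of every region. Per the labels, the HCT116 genomic control served to call both nascent-strand lists, and it was not analysed here. The RepID score is that of MACS against genomic input of the same line, and the meaning of the nascent-strand score the authors deposited is not stated. The submitters' processing notes name hg19, MACS and SICER. The caller for the HCT116 lists is not given in the sources used here.

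Overlaps, gaps and coverage were computed with SciPy 1.17.1, pandas 2.3.3 and numpy 2.4.6 under Python 3.11.15, tested on simulated data and against bedtools 2.31.1. Positions are counted from 1. Densities have exact Poisson intervals, density ratios exact conditional ones, shares exact binomial ones, differences of shares Newcombe ones and ratios of ratios Wald ones, all at 95%. The blocks, and the rules for parts and named regions (the highest-scoring regions and longest gaps of each list and class), were chosen with earlier results of these data known. Gene order and promoter windows were added after the lists were seen, as were the genome tiles, the stretch across the centromere, the long arm alone as reference and the width comparisons without the widest quintile and up to 5 kb. Promoter identity counts identical aligned positions of 300, with end gaps free.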

Additional observations from a re-analysis of the deposited data

How the results depend on the processing

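Of 92 alternative values, 74 lay within the 95% interval of the reported value and 18 outside it. None whose interval excluded no difference turned its direction. The pericentromeric kept difference, 0.149 points as reported, has an interval on both sides of 0 and was -0.111 points with high-scoring WT regions, 5.89 with a KO list cut to the length of the WT list, 6.53 with the rest limited to the short arm and -5.35 with it limited to the long arm between the blocks, a reference added after seeing the data. With regions scoring at or above their list's median only, the density ratio to the rest was 0.137 (WT) and 0.892 (KO, an interval that included 1, 0.708 to 1.11) in the pericentromeric block, 0.749 (WT) and 0.499 (RepID) in the telomeric block, and the KO to WT ratio over the rest was 6.51 and 2.04. High-scoring KO regions lay away from WT regions by 7.35 points more in the telomeric block than in the rest. With the rest limited to the short arm, the telomeric block gave a KO density ratio of 1.68, a KO to WT ratio of 2.05, a kept difference of 18.9 points and a KO-only difference of 19.04 points. Limited to the long arm, the first 3 were 1.30, 1.33 and 6.998 points (1.95 to 12.0). The long arm includes the empty stretch over the centromere, and with that stretch left out of the whole rest the KO density ratio was 1.34 (1.21 to 1.47). The pericentromeric difference in bound share was -30.0 points at a gap of 5 kb and -11.0 with high-scoring RepID regions. The kept difference of that block was 19.6 points matched by width and 14.5 without the widest quintile (the latter chosen after seeing the data, as was the limit of 5 kb on WT width). It was 9.502 points (1.12 to 19.2) when an origin counted as kept only with 50% or more of its length covered, and then 3.65 (-4.86 to 13.5) against the long arm. The WT density ratio of the telomeric block included 1 with merged regions (0.936, 0.845 to 1.03) and with block limits moved inward (0.917, 0.829 to 1.01). Without the longest empty stretch it was 0.840 and excluded 1 (0.761 to 0.925).

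No paired analysis was possible because each condition has 1 library. Depth is unknown, and differences between libraries in calling cannot be told apart from differences between WT and KO cells.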

Other observations

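Stretches of the genome were set beside the pericentromeric block after its values had been seen, and they are given as values only. The genome was divided into tiles of 4.5 Mb. Of these, 296 held at least as many WT regions as the block, and 1 of them, the block itself, had no RepID region. The lowest RepID number among the others was 5 and the median was 52. In the 77 tiles outside the block with 80 to 120 WT regions, RepID regions numbered 9 to 75 (median 27) and KO regions 1 to 396 (median 269), against 157 KO regions in the block.

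Across the centromere, the 4.5 Mb from the first RepID region of the long arm, chr19:27731795-32231794, held 270 WT regions (60 per Mb), 289 KO regions (64.2 per Mb) and 55 RepID regions (12.2 per Mb). WT regions covered 18.7% of it and KO regions 22.8%. The KO to WT ratio was 1.07, and 140 of 270 WT origins were kept (51.9%, exact interval 45.7 to 57.9).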
